A study of Mus musculus with 6 samples.

Results

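The listed 28S rRNA sites around domain IV, from G3606 to G3923 in human numbering, were examined in mouse brain. They are 19 of the 108 ribose-methylated sites that the authors list, and 19 of the 66 listed in 28S rRNA. They were taken by a window of human positions alone, so no methylation value entered the choice. The nearest listed sites outside the window were G2863, with a mean fraction of 0.955 in adult and 0.941 in E16.5 brains, and G4020, with 0.849 in adult and 0.607 in E16.5 brains. The 6 RiboMeth-seq libraries come from 3 adult Snord115-KO whole brains and 3 whole brains of E16.5 embryos lacking both Snord115 and Snord116. The adult mice carry a CRISPR/Cas9 deletion of the Snord115 array inherited from the father. Their line was made in C57BL/6J by CBA hybrid zygotes and backcrossed to C57BL/6J before phenotyping. The background of the sequenced brains was not stated. The line that lacks both clusters was not described in the study's methods, and one legend calls its brains adult where the sample labels give E16.5. Every one of the 6 brains therefore lacks Snord115, and the groups differ in age and in Snord116 at once. Age and genotype cannot be told apart in this comparison. WT brains enter only as the authors' mean scores and SDs for each age, from littermates whose values were also used in an earlier publication. The tables cover rRNA positions only, so neither the loss of the SNORDs nor the tissue could be checked on marker transcripts.

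Domain IV of the large subunit rRNA faces the small subunit over much of its length and takes part in the bridges between the subunits. Fibrillarin, within box C/D snoRNPs, methylates the 2'-hydroxyl of the ribose. The snoRNA pairs with the rRNA, and the nucleotide opposite the fifth base before its D or D' box is methylated. RiboMeth-seq reads this mark as protection from alkaline cleavage: fewer fragments begin or end at a methylated nucleotide than around it. The methylated fraction is 1 minus the observed over the expected ends at a position, so that 1 stands for complete and 0 for no protection. The label as subunit interface was not checked, since no structure was used here, and the sites are defined by their position.

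The 19 sites fell between positions 3286 and 3603 of mouse 28S rRNA, a stretch of 318 bases, and human and mouse numbers differed by 320 at every site. Names below use the human number. There were 5.97 listed sites per 100 bases between the first and the last of them, and 3.81 per 100 human positions over the whole window that chose them, against 1.40 per 100 bases over all of 28S rRNA. The stretch was also richer in A, with 27.99% A against 16.7% over 28S rRNA. Of the methylated bases 7 were A, 5 C, 5 G and 2 U. Windows around sites that the results turn on are shown 5′ to 3′ as the deposited tables give the mouse rRNA, with the listed nucleotides in capitals:
G3606: gcggaccaggGgaauccgacu
A3697 and A3703: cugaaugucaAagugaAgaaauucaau
A3764 and G3771: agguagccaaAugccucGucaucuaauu
A3804 and A3809: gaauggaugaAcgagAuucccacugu
A3846 and C3848: gcgaaaccacAgCcaagggaacg
U3904: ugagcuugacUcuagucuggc
G3923: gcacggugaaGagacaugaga

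Guides were looked for among 1507 mouse snoRNA transcripts of GENCODE (release M21, assembly GRCm38), of which 391 held a C box and a D box. For 18 of the 19 sites at least 1 of these could pair over 9 or more bases, G-U pairs included, with the site opposite the fifth base before a CTGA box, in which 1 mismatch was allowed at D'. For 17 sites the best run was 10 bases or longer. No transcript paired in this way at G3606. The guide stretches of the sites that lie closest together, and of U3904 and G3923, are given 5′ to 3′ in DNA letters, with the base opposite the methylated nucleotide and the box in capitals:
Snord92, for A3846: ttccttggcTgtgtCTGA
Gm22858, for C3848: ttctcttgGctgtCTGA
Snord15a before its D box, for A3764: gaggcaTttgtCTGA
Snord15a before its D' box, for G3771: gatgaCgagtCTGA
Snord37, for A3697: ttcttcactTtgacCTGA
Gm22879, for A3703: tgaatttcTtcacCTGA
Snord52, for U3904: cagactagAgtctCTGA
Snord111, for G3923: ttcatgtctCttctCTGA

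A pairing is a description of the sequences and not a test of the guide. Snord92 and Gm22858 lie in the gene Wdr43 on chromosome 17, at positions 71631281 to 71631365 and 71641584 to 71641659. Their stretches overlap on the rRNA, since A3846 and C3848 are 2 bases apart. A single snoRNA, Snord15a in Rps3 (chromosome 7, positions 99482785 to 99482932), held stretches for both A3764 and G3771, which are 7 bases apart. Snord15b, also in Rps3, held the same stretch for A3764. It held one for G3771 too, before a D' box with 1 mismatch. The best partners of 3 sites, A3809, C3820 and C3866, came from snoRNA entries inside Gas5, the host gene of many box C/D snoRNAs on chromosome 1. The snoRNA paired with A3697 lies in Eef2, that of A3703 in Rpl7a and that of C3787 in Eif4a1, all genes of the translation machinery. At C3680 the entries Gm23991, Snord88a and Snord88c paired equally well, with the same stretch. Other best partners were Snord87 (in Snhg6) for G3723, Snord17 (in Snx5) for U3797, Gm22680 (in Snhg1) for A3804 and Snord12 (in Zfas1) for G3878.

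Most of these nucleotides were highly protected, as were most listed sites. The mean fraction reached 0.75 at 18 of 19 sites in adult Snord115-KO brains and at 16 of 19 in E16.5 brains. Over all 108 listed sites it did so at 104 and 95. A mean of 0.90 was reached at 15 of 19 sites in adult and 11 of 19 in E16.5 brains, and at 92 and 66 of all 108. The median over the sites was 0.961 in adult and 0.933 in E16.5 brains, close to the 0.967 and 0.941 of the other 47 listed 28S sites. The brains varied more at these sites. The median SD of a site was 0.0268 in adult brains, against 0.00755 at the other 28S sites. In E16.5 brains it was 0.0368, against 0.0170 at the other 28S sites. These medians are given as a description and were not tested. Depth differed among the brains, with totals between 9621368 and 20064865 read ends. At the 19 sites the expected ends ranged between 277 and 18225.

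The contrast between the groups of KO brains is called that between the ages below, although Snord116 differs along with age. In this contrast 1 of the 19 sites passed the test, G3606, with the higher fraction in the adult. Over all 108 listed sites the same edgeR fit called 26.9%, or 25.9% with the higher fraction in the adult, so the share here, 5.26%, was below that of the whole list. The 1 call stood among 4 members with an unadjusted p under 0.05. The adult mean was higher at 15 of 19 sites, and at 95 of all 108. The brains of the ages did not overlap at 5 of 19 sites, 4 of them higher in the adult, where 42.6% of all listed sites did not overlap and 38.9% did so with the adult higher. DESeq2 called 5 of the 19 sites and 43.5% of all. The tested quantity was the log2 ratio of the unprotected share in adult over that in E16.5 brains, which is negative where the adult is the more methylated. Its median was -0.57 at the 19 sites and -0.87 over all 108.

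G3606 was almost fully protected in adult brains and partly open in E16.5 brains. Its fraction was 0.974, 0.966 and 0.944 in adult brains 1, 2 and 3, against 0.809, 0.703 and 0.819 in E16.5 brains 1, 2 and 3. Every adult brain lay above every E16.5 brain. The means were 0.961 ± 0.0158 in adult and 0.777 ± 0.0643 in E16.5 brains (SD, n = 3 each). The unprotected share changed by -2.52 ± 0.492 on the log2 scale (SE, edgeR, adjusted p = 0.0135). The authors' WT means were also apart, 0.9485 in adult and 0.834 at E16.5. The call was lost without adult brain 2, with a log2 change of -2.44 and an adjusted p of 0.0599, and when the expected ends were rescaled by TMM factors, with -2.51 and an adjusted p of 0.0590.

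The difference at G3606 showed on 5′ read ends and not on 3′ read ends. On 5′ ends alone, G3606 had fractions of 0.978, 0.965 and 0.948 in adult brains, against 0.768, 0.530 and 0.665 in E16.5 brains. On 3′ ends alone it had 0.969, 0.967 and 0.938 in adult brains, against 0.971, 0.969 and 0.982 in E16.5 brains. The groups did not overlap on 5′ ends, and on 3′ ends they overlapped, with the highest value in an E16.5 brain. The log2 change of the unprotected share was -3.24 ± 0.359 on 5′ ends (SE, edgeR, adjusted p = 1.88e-05) and 0.70 ± 0.469 on 3′ ends (adjusted p = 0.384). The difference between the kinds of ends was itself tested and came to 3.95 ± 0.662 (SE, edgeR, adjusted p = 0.0302). It was the 1 site called among 107 tested for this, or 0.935%. This call was lost when adult brain 2 or 3, or E16.5 brain 2 or 3, was left out, with adjusted p-values between 0.104 and 0.264.

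G3771 and C3820 followed in size of change, and neither passed the test. Among the alternative settings G3771 passed in 9 of 20 and C3820 in 5 of 19. G3771, the site that the D' stretch of Snord15a faces, had fractions of 0.960, 0.990 and 0.982 in adult brains, against 0.868, 0.935 and 0.929 in E16.5 brains. The groups did not overlap, and the log2 change was -1.99 ± 0.612 (SE, edgeR, adjusted p = 0.0555). With the 5′ ends alone the same site had 0.989, 0.990 and 0.988 in adult brains, against 0.983, 0.923 and 0.936 in E16.5 brains, and an adjusted p of 0.00222. On 3′ ends the groups overlapped at G3771 (edgeR, adjusted p = 0.307). Those ends gave 0.936, 0.992 and 0.976 in adult brains, against 0.764, 0.957 and 0.928 in E16.5 brains. The low value of E16.5 brain 1 on all ends, 0.868, thus lay in its 3′ ends. The neighbouring site A3764, which the D stretch of the same snoRNA faces, showed no such gap on all ends. A3764 had 0.941, 0.945 and 0.897 in adult brains, against 0.968, 0.968 and 0.914 in E16.5 brains, with an adjusted p of 0.493. The changes of these 2 sites were not tested against each other.

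C3820, which pairs with a snoRNA entry inside Gas5, had fractions of 0.923, 0.986 and 0.976 in adult brains, against 0.849, 0.878 and 0.780 in E16.5 brains. Here too the groups did not overlap, and the log2 change was -2.08 ± 0.652 (SE, edgeR, adjusted p = 0.0572). At C3820 the gap lay in the 3′ ends. They gave 0.8996, 0.969 and 0.933 in adult brains, against 0.762, 0.831 and 0.703 in E16.5 brains. The 5′ ends gave at least 0.9756 in all 6 brains. The test between the kinds of ends gave -2.07 ± 0.914 at this site (SE, edgeR, adjusted p = 0.352). The other sites with Gas5 partners did not pass the test. A3809 had a mean of 0.982 ± 0.00266 in adult and 0.965 ± 0.0161 in E16.5 brains (SD, n = 3 each, adjusted p = 0.119), and C3866 had 0.981 ± 0.00593 in adult and 0.977 ± 0.00324 in E16.5 brains (adjusted p = 0.521).

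A3846 and C3848, the closest pair, lay at different levels, with guides from the same host gene. A3846 had the lowest mean of the 19 sites in both groups. Its fraction was 0.737, 0.779 and 0.643 in adult brains, against 0.532, 0.633 and 0.587 in E16.5 brains. The lowest adult brain was just above the highest E16.5 brain, and the log2 change of -0.57 ± 0.388 did not pass (SE, edgeR, adjusted p = 0.308). C3848 had 0.879, 0.967 and 0.953 in adult brains, against 0.775, 0.895 and 0.886 in E16.5 brains, and adult brain 1 fell inside the E16.5 range (adjusted p = 0.175). Both kinds of ends placed A3846 low. Its 5′ ends gave between 0.801 and 0.876 in adult and between 0.672 and 0.809 in E16.5 brains, and its 3′ ends gave between 0.436 and 0.676 in adult and between 0.347 and 0.460 in E16.5 brains. Each site also counts among the neighbours from which the other is scored. In E16.5 brain 2 these sites had the fewest expected ends of all members, 286 at A3846 and 277 at C3848. C3820 followed there with 458, and had the fewest in adult brains 2 and 3, with 1437 and 819.

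A3804 and A3809, 5 bases apart, showed how strongly a single library could set a mean. A3804 had fractions of 0.550, 0.904 and 0.887 in adult brains, against 0.647, 0.912 and 0.867 in E16.5 brains. Brain 1 was low in each group, and the groups overlapped throughout (adjusted p = 0.853). On 5′ ends alone A3804 had 0.959, 0.908 and 0.950 in adult brains, against 0.918, 0.949 and 0.952 in E16.5 brains, with no low brain. The 3′ ends of the first brain gave 0.472 in adult and 0.584 in E16.5. At A3809 no brain stood apart in this way, with fractions of 0.984, 0.983 and 0.979 in adult brains, against 0.980, 0.948 and 0.967 in E16.5 brains.

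U3904, the site that Snord52 faces, also had a low adult brain 1. Its fraction was 0.667, 0.985 and 0.979 in adult brains, against 0.784, 0.680 and 0.744 in E16.5 brains. The other 2 adult brains lay far above the E16.5 range, and adult brain 1 lay below it. In adult brain 1 the 3′ ends alone gave 0.224. On 5′ ends U3904 had 0.983, 0.986 and 0.981 in adult brains, against 0.967, 0.874 and 0.923 in E16.5 brains, without overlap. The log2 change was -1.10 ± 1.16 on all ends (SE, edgeR, adjusted p = 0.493), -2.21 ± 0.461 on 5′ ends (adjusted p = 0.00175) and -0.63 ± 1.39 on 3′ ends (adjusted p = 0.835). Without adult brain 1 it was -3.86, with an adjusted p of 0.0118.

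A3804 and U3904 are both followed by C, and so are A3739, C3820 and C3848. In some libraries the raised 3′ ends moved with this next base. At the 5 members before C, the unprotected share on 3′ ends exceeded that on 5′ ends by a median of 4.07 on the log2 scale in adult brain 1, 0.22 in adult brain 2 and 1.17 in adult brain 3. In E16.5 brains this excess was 3.94, 0.85 and 2.34. Over all 21 listed sites before C it was 4.25, 0.02 and -0.16 in adult brains and 2.90, 0.39 and 2.10 in E16.5 brains, so the pattern was not particular to this stretch. Adult brain 1 was the lowest adult brain at 5 of 5 members before C and at 1 of the other 14. Over all 108 listed sites, whatever the next base, it was the lowest adult brain at 38. At nearly all listed sites before C outside the stretch it was the lowest too, though not at LSU-G2351. At LSU-A1313, for example, the adult brains had 0.588, 0.978 and 0.988. At A3739 the 3′ ends gave 0.585, 0.982 and 0.982 in adult brains, against 0.585, 0.971 and 0.879 in E16.5 brains, while its 5′ ends gave at least 0.9836 in every brain. With 5′ ends alone at the sites before C, an alternative added after the data had been seen, 4 of the 19 sites and 40.7% of all passed the test. The part of the next base in the differences between the ages was not tested.

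Other libraries were often the lowest of their group at members not followed by C. Adult brain 3 was the lowest adult brain at 12 of these 14 sites, and E16.5 brain 2 the lowest E16.5 brain at 8 of them. Over all 108 listed sites, those before C included, these brains were the lowest at 53 and 43. The margin was small at some members, as at A3809, with 0.979 in adult brain 3 against 0.984 and 0.983. At C3680 adult brain 3 had 0.873, against 0.986 in each of the other 2 adult brains, while the E16.5 brains had 0.974, 0.937 and 0.978. Its 5′ ends gave 0.982 in adult brain 3, and its 3′ ends 0.737. A3697, which pairs with Snord37, had fractions of 0.946, 0.942 and 0.851 in adult brains, against 0.971, 0.705 and 0.943 in E16.5 brains. On 5′ ends A3697 was between 0.972 and 0.989 in adult brains and between 0.982 and 0.989 in E16.5 brains. C3680, A3697 and G3923 are the 3 members followed by A. At them the median excess of the unprotected share on 3′ over 5′ ends was 1.35, 1.54 and 3.18 on the log2 scale in adult brains 1, 2 and 3, and 0.80, 1.61 and -0.67 in E16.5 brains 1, 2 and 3. Over all 18 listed sites before A it was 0.29, 1.33 and 1.53 in adult brains and 0.38, 2.27 and -0.23 in E16.5 brains, so the libraries with the largest excess differed from those before C. The sites C3680 and A3697 did not pass the test between the ages (adjusted p = 0.720 and 0.655).

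A3703, 6 bases from A3697, was among the steadiest members. It had fractions of 0.980, 0.979 and 0.982 in adult brains, against 0.988, 0.984 and 0.986 in E16.5 brains. It was the 1 site without overlap at which the adult brains were lower, by 0.00554 in the mean, and it did not pass the test (adjusted p = 0.186). The lower adult value was given by the 3′ ends, which were at most 0.981 in adult brains and at least 0.983 in E16.5 brains. On 5′ ends the brains of the ages overlapped.

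G3923, the last of the 19 sites and the one that Snord111 faces, had the largest SD of the 19 sites in E16.5 brains, 0.277. Its fraction was 0.940, 0.883 and 0.826 in adult brains, against 0.850, 0.353 and 0.814 in E16.5 brains. The low value of E16.5 brain 2 came from its 3′ ends, at 0.345, while its 5′ ends gave 0.788. On 5′ ends G3923 had 0.975, 0.946 and 0.876 in adult brains, against 0.781, 0.788 and 0.727 in E16.5 brains, without overlap. The log2 change was -1.48 ± 0.712 on all ends (SE, edgeR, adjusted p = 0.165) and -1.82 ± 0.463 on 5′ ends (adjusted p = 0.00566).

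Scored on 5′ ends alone, the stretch looked more uniform between brains and more different between the ages. The median SD of a site on 5′ ends was 0.00684 in adult and 0.0126 in E16.5 brains, against 0.0349 in adult and 0.0592 in E16.5 brains on 3′ ends. The fraction was 0.90 or more in all 6 brains at 14 of 19 sites on 5′ ends and at 8 of 19 on 3′ ends. On 5′ ends 8 of the 19 sites passed the test, all with the higher fraction in the adult: G3606, C3680, A3739, G3771, C3848, G3878, U3904 and G3923. The same fit called 58.3% of all 108 listed sites, and 53.7% with the higher fraction in the adult, so the share here, 42.1%, was again below that of the whole list. On 3′ ends 0 of 19 passed in edgeR, with 2 at an unadjusted p under 0.05, where 6.54% of 107 sites were called. The choice of read end thus changed the calls at 8 sites of the stretch, and at G3606, C3680 and G3878 the direction as well.

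The other 6 members, G3723, A3764, C3787, U3797, C3866 and G3878, lay between 0.897 and 0.990 in every adult brain and between 0.898 and 0.987 in every E16.5 brain. None passed the test on all ends. U3797, in whose case Snord17 was the best partner, came nearest, with 0.977, 0.978 and 0.964 in adult brains, against 0.937, 0.965 and 0.943 in E16.5 brains (edgeR, adjusted p = 0.0892). The groups overlapped, although narrowly. G3878 was steady in all brains on all ends but its log2 changes had opposite signs on the 2 kinds of ends, -0.89 ± 0.360 on 5′ ends (SE, edgeR, adjusted p = 0.0482) and 1.69 ± 0.550 on 3′ ends (adjusted p = 0.0923). The test between the kinds of ends did not pass there (adjusted p = 0.181).

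By base, the adult mean was higher at 5 of 5 G sites, 2 of 2 U sites, 4 of 5 C sites and 4 of 7 A sites. The 6 sites within 6 bases of another listed site had a median of 0.923 in adult and 0.862 in E16.5 brains. The 13 sites farther apart had 0.961 in adult and 0.949 in E16.5 brains. The 5 sites before C had a median of 0.933 in adult and 0.835 in E16.5 brains, and the other 14 had 0.964 in adult and 0.949 in E16.5 brains. These groups share members and were not tested.

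The study set KO against WT brains to ask whether rRNA methylation depends on these SNORDs. In the authors' means, the KO value was below the WT value at 12 of 19 sites in adult brains, where 55.6% of all listed sites were below, and at 13 of 19 at E16.5, where 64.8% were. The gaps between these means were mostly small. They exceeded 0.05 at 2 of 19 sites in adult brains and at 4 of 19 at E16.5, where 12% and 14.8% of all listed sites did. Some gaps were larger on the deposited fractions of the same KO brains. The KO average less the WT mean was then -0.138 at A3804 and -0.114 at U3904 in adult brains. At E16.5 it was -0.202 at U3904, -0.109 at A3804 and -0.0752 at A3697. At these sites the authors' KO means use 5′ ends alone for part of the brains. Those means gave gaps of -0.00111 at A3804 and -0.00849 at U3904 in adult brains. At E16.5 they gave -0.0779 at U3904, -0.0184 at A3804 and 0.0172 at A3697. The scoring of the WT means could not be checked, so the larger gaps may set unlike scores side by side. None of the gaps was tested here, and the WT values are given only as the authors' means and SDs.

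In adult brains the largest gaps of the authors' means were at G3923, with 0.883 in KO and 0.940 in WT, at A3846, with 0.720 in KO and 0.771 in WT, and at C3680, with 0.948 in KO and 0.988 in WT. In the KO brains behind these means, G3923 reached 0.940 in brain 1, A3846 reached 0.779 in brain 2 and C3680 reached 0.986 in brains 1 and 2. At C3680 most of the gap lay in brain 3, and at A3846 brain 2 was above the WT mean. The authors' SDs at G3923, A3846 and C3680 were 0.0468, 0.0569 and 0.0532 in KO and 0.0203, 0.0398 and 0.00729 in WT. At E16.5 the largest gaps were at U3904, with 0.860 in KO and 0.938 in WT, at C3820, with 0.835 in KO and 0.910 in WT, and at G3771, with 0.911 in KO and 0.968 in WT. G3606 followed closely, with 0.777 in KO and 0.834 in WT. At U3904 the authors' KO mean took brain 1 on both kinds of ends and brains 2 and 3 on 5′ ends alone. The same brains averaged 0.736 on both kinds of ends and 0.921 on 5′ ends. The size of the gap at U3904 therefore depends on the scoring, and the WT mean could not be rescored. At C3820 and G3771 all 3 E16.5 brains lay below the WT mean. The authors' SDs for U3904, C3820, G3771 and G3606 at E16.5 were 0.0576, 0.0412, 0.0301 and 0.0525 in KO. In WT they were 0.0109, 0.0353, 0.00668 and 0.0463, in the same order.

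Some of the authors' KO means rest on 5′ ends alone for part of the brains. In the adult mean this held for brain 1 at A3804 and U3904. In the E16.5 mean it held for brain 2 at A3697, brain 1 at A3804 and brains 2 and 3 at U3904. These were found by recomputing each mean within 0.0001. On the deposited fractions the mean of the 3 adult brains at U3904 was 0.877 ± 0.182 (SD, n = 3), and the authors' KO mean was 0.982. At A3804 the brains averaged 0.780 ± 0.200 in adult (SD, n = 3), and the authors' KO mean was 0.917.

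The authors' WT means of the ages were also apart in this stretch. The adult WT mean was the higher at 15 of 19 sites, where 80.6% of all listed sites were higher in the adult. Adult over E16.5 pointed the same way in the KO brains and the WT means at 13 of 19 sites, 12 of them higher in the adult and 1, A3764, lower. Over all 108 listed sites it did so at 88, and at 40 of the other 47 in 28S rRNA, both larger shares. The largest WT gaps of the stretch were at G3923, with 0.940 in adult and 0.714 at E16.5, at A3846, with 0.771 in adult and 0.610 at E16.5, and at G3606, with 0.9485 in adult and 0.834 at E16.5. They ranked 2, 4 and 7 among all 108 listed sites. The authors' WT SDs at G3923, A3846 and G3606 were 0.0203, 0.0398 and 0.0144 in adult and 0.0733, 0.0833 and 0.0463 at E16.5. WT brains of both ages carry the SNORDs, whereas the KO groups also differ in Snord116, and the WT ages were not tested against each other here.

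Between the listed sites the stretch held little protection. All 299 unlisted positions had at least 100 expected ends in every brain. None reached a fraction of 0.75 in all 6 brains, and 14 reached it in at least 1. The median fraction of these positions was 0.0738 in adult and 0.0906 in E16.5 brains. The position with the highest minimum was a U at mouse position 3512, with 0.728, 0.758 and 0.681 in adult brains, against 0.682, 0.636 and 0.644 in E16.5 brains. It was singled out after its values had been seen, and lies at a level close to that of A3846 and 12 bases from the nearest listed site. Other unlisted positions also had E16.5 means above the 0.584 of A3846, as did 3298 with 0.731 and 3579 with 0.698. In adult brains their means were 0.667 and 0.603, against 0.720 at A3846.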

How the data were processed

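RiboMeth-seq data came from 3 adult and 3 E16.5 KO brains. The authors mapped reads to curated mouse rRNA, with cutadapt 2.0 and Bowtie2 2.3.4.1 named in their processing notes. They deposited raw counts of 5′ and 3′ read ends per position. The authors' deposited methylated fraction is 1 minus these counts over the ends expected from the 6 nearest positions on either side, weighted from 1 down to 0.5, with negative values set to 0. Recomputed fractions of the members equalled it. A deposited overview gives the authors' mean score and SD of KO and WT brains in human numbering. It names no snoRNAs, so members were taken by position, and guides were searched for in GENCODE transcripts by a rule settled after a first search had been seen. It asked for a C box with at most 1 mismatch, a D box and an unbroken run of at least 9 pairs. An adult column without a heading (1 column) was not used.

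The quasi-likelihood test of edgeR 4.0.16 was run on the sum of both kinds of ends, adult against E16.5. The log of the expected ends was the offset, and p-values were adjusted by Benjamini-Hochberg across the 108 listed sites (threshold 0.05). Kinds of ends were compared with brain as a block. Exact permutation of 3 against 3 brains cannot give a two-sided p under 0.1. SDs computed here divide by n minus 1, and the authors' SDs are given as listed. Reads carry no molecular identifiers, so the spread between brains was used in place of counting intervals, and p-values measure that spread. The scripts were tested on simulated data. Sites described in full passed the test, had a mean under 0.90, had 5′ and 3′ means over 0.10 apart, had 1 of the 3 largest KO gaps at an age, or lay within 6 bases of a listed site. Alternatives used other neighbours, 1 kind of end, each brain left out, a replicate block, DESeq2 1.42.0, limma 3.58.1, TMM factors or 1000 expected ends. Scoring sites before C on 5′ ends was chosen with the data in view. Members and lists were chosen with earlier results of these data known. Python 3.11.15, numpy 2.4.6, pandas 2.3.3 and R 4.3.3 were used. Some partners and sequence windows are not reported here.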

Additional observations from a re-analysis of the deposited data

Results flagged for a closer look

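At 4 of the 19 sites, and at 14 of all 108, all KO brains of one age lay above the authors' WT mean and all those of the second age below it. The difference was not tested at any of them. The KO average less the authors' WT mean came to -0.00678 in adult and 0.005 in E16.5 brains at A3703, -0.00388 in adult and 0.0077 in E16.5 brains at C3787, and -0.0119 in adult and 0.0174 in E16.5 brains at U3797. At G3878 the signs were turned, with 0.00394 in adult and -0.00975 in E16.5 brains. All of these gaps were under 0.02. The authors' WT SDs at A3703, C3787, U3797 and G3878 were 0.00368, 0.00254, 0.00415 and 0.0108 in adult brains. At E16.5 they were 0.00445, 0.0103, 0.0211 and 0.0019, in the same order.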

How the results depend on the processing

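The number of the 19 sites past the threshold was 1. It was 2 with 2 or 4 neighbours on each side, with the median of the 12 neighbours and with limma on the fraction, 3 with limma on log2(1 - fraction + 0.01), 5 with DESeq2, 8 on 5′ ends, 0 on 3′ ends and with TMM factors, 4 with 5′ ends at sites before C, and between 0 (without adult brain 2) and 5 (without adult brain 1) with a brain left out. Over all 108 sites the count of 29 became 63 on 5′ ends, 7 on 3′ ends, 47 with DESeq2, 9 with TMM factors, 44 with 5′ ends before C, and between 10 and 30 with a brain left out. TMM factors moved the median log2 change of all sites to -0.67, against -0.87. G3606 kept its call under 17 of 20 alternatives, with adjusted p-values between 3.56e-07 and 0.384. It was lost on 3′ ends, without adult brain 2 and with TMM factors (adjusted p = 0.0590). Sites that differed by kind of end numbered 1 among the members, and between 0 and 1 with a brain left out. Over all sites they numbered 1, with 2 under 2 neighbours, the median of the neighbours or limma, and between 0 and 4 with a brain left out. Sites with a mean of 0.75 or more numbered between 16 and 19 in adult and between 15 and 18 in E16.5 brains, and 15 in adult and 11 in E16.5 brains reached 0.90. Means of the brains put 12 adult and 14 E16.5 sites below WT.

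The replicate number does not pair the brains, since deviations of equal numbers correlated at 0.68, 0.45 and -0.21. Not every brain correlated best with its own number: adult brain 3 did so with E16.5 brain 2, at 0.67. As a replicate block it gave 4 calls among the 19 sites (G3606, G3771, C3820 and C3848) and 31 over all sites. It turned the direction at C3680 (-0.30) and A3697 (0.0725).

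The log2 change turned its direction only at sites that did not pass the main test, apart from G3606 on 3′ ends (0.70). On 5′ ends it was -1.51 at C3680, 0.45 at A3697 and -0.0888 at A3764. On 3′ ends it was 0.0141 at A3697 and 1.69 at G3878. With limma it was -0.0264 at C3680, with TMM factors 0.38 at A3739 and 0.11 at G3878, and with 2 neighbours -0.0199 at A3804. With a brain left out the changes ranged between -1.39 and 1.10 at C3680, -1.19 and 0.9996 at A3697, -2.10 and 1.13 at A3739, -0.87 and 0.99 at A3804 and -0.135 and 0.113 at G3878. The causes were not tested. Sites with few expected ends, A3846, C3848 and C3820 among them, are read with less precision.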
